A study of Rattus norvegicus with 18 samples.

Results

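Acaca, Scd, Fads1, Fads2, Srebf1, Srebf2, Ppargc1a and Ppargc1b are genes of lipid synthesis and of the PGC-1 coactivator family. These 8 genes were followed through lists of m6A peaks, regions of RNA pulled down by an antibody against N6-methyladenosine, from H9c2, a rat cell line that was first grown from the embryonic heart. A peak was assigned to a member when the gene name in the deposited list was that symbol. Of the 8 members, 5 had a peak in at least 1 library and 3 (Fads1, Srebf1 and Ppargc1a) had none, out of 4846 genes with a peak in the whole series. The members held 35 of 32961 peaks. Peaks that overlapped by at least 1 base between libraries were joined into sites, which gave 7 member sites among 9022.

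The SYD group was given Shen-Yuan-Dan capsule, a Chinese herbal preparation, at 2 mg/mL by the sample labels (1 mg/mL in the design text of the series) together with 50 µM phenylephrine for 24 h. The Model group was given 50 µM phenylephrine, an alpha-adrenergic agonist that enlarges cultured heart cells, for 24 h without SYD. The Control group had no intervention. Each group had 3 replicates, all of wild-type H9c2 cells labelled as cardiomyocytes, and each replicate had an immunoprecipitated (IP) and an input library. The labels do not say whether replicates came from separate cultures, so the spread between them may be technical. H9c2 is a proliferating line with features of muscle precursors and is a limited model of adult heart muscle. Of 16 cardiomyocyte markers, 3 (Tnnt2, Nkx2-5 and Gata4) had a peak, and so did 0 of 8 skeletal myoblast, 0 of 7 fibroblast, 0 of 6 adipocyte and 0 of 7 endothelial and blood cell markers. A peak is not an RNA level, so these counts do not measure the cell type.

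N6-methyladenosine is the most common internal mark of messenger RNA. It is written by the METTL3 and METTL14 complex, removed by FTO and ALKBH5, and read by proteins that alter splicing, translation and decay of the transcript. Fatty acid synthesis starts with acetyl-CoA carboxylase, which makes malonyl-CoA, the building block of fatty acids and also the brake on their entry into mitochondria. Desaturases then insert double bonds, SREBP transcription factors switch on the genes of fatty acid and sterol synthesis, and the PGC-1 coactivators raise mitochondrial and oxidative gene programmes, on which heart muscle depends for its energy.

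The lists differed in length between groups. SYD lists held 2508, 2691 and 2786 peaks, Model lists 4476, 2883 and 4187, and Control lists 5556, 3629 and 4245. The median fold enrichment of IP over input within a list was 21.4 to 30.9 in SYD, 9.71 to 11.3 in Model and 7.29 to 10.4 in Control. SYD folds were therefore larger across the whole list, and each member fold below is also given divided by the median of its own list. These medians cover called peaks only. The lowest fold in a list was 7.91 to 10.51 in SYD, 4.01 to 4.21 in Model and 2.72 to 3.73 in Control. Each peak carries a score, 10 times the negative log10 of the peak caller's p, and the lowest score in any list was 20. A site without a peak is thus a site below that limit and not one shown to be unmethylated. RNA levels were not analysed here, so less methylation and less of the transcript cannot be told apart at any site.

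Members with a peak were fewer in SYD and Model libraries than in Control libraries. Genes with a peak were also fewer over the whole lists, with means of 1896 in SYD, 2562 in Model and 2899 in Control, or 36.8% to 41.2%, 42.0% to 60.7% and 50.1% to 72.4% of the 4846 genes per library. Of the members, each SYD library had 2, Model replicates 1 to 3 had 2, 2 and 3, and Control replicates 1 to 3 had 5, 4 and 5. The means were 2.00 ± 0.00 in SYD, 2.33 ± 0.577 in Model and 4.67 ± 0.577 in Control (SD, n = 3 each), and neither SYD nor Model overlapped Control. In lists shortened to equal length the mean difference was smaller, -1.0 for Model minus Control against -2.33 as deposited, and -0.667 for SYD minus Control against -2.67. A count over chosen genes was given no test. Held by all 3 libraries of one group and none of another were the sites of Acaca and Fads2 and 1 of the 2 Ppargc1b sites. Among all sites compared, 1.69% were in every Control and no Model library, 0.29% in every SYD and no Model library, 4.8% in every Model and no SYD library, and 8.1% in every Control and no SYD library.

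**Figure D1:**
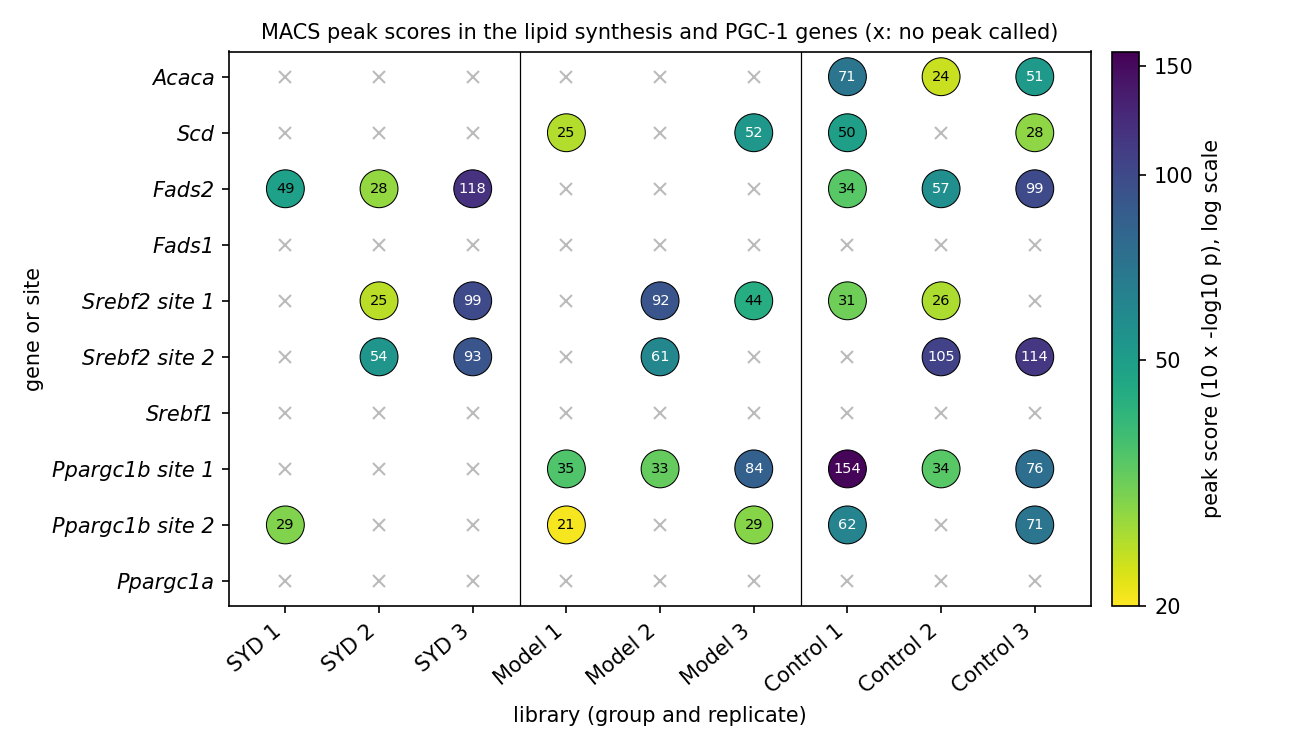
Peak score (10 × −log10 p, colour on a log scale, value printed in the circle) of each member site in the 9 libraries, with SYD at the left, Model in the middle and Control at the right. A cross means that no peak was called. Fads2 has circles in all SYD and Control libraries and none in Model, Acaca only in Control, and Ppargc1b site 1 in Model and Control only, while Fads1, Srebf1 and Ppargc1a have crosses throughout.

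Acaca encodes acetyl-CoA carboxylase alpha, the enzyme that makes malonyl-CoA for fatty acid synthesis. Its site, chr10:71719787-71719910 in rn6 (124 bases, listed on transcript ENSRNOT00000041140), had no peak in any SYD or Model library. In the Control libraries its scores were 70.71, 23.77 and 51.45. Acaca was thus called in 0 of 3 SYD, 0 of 3 Model and 3 of 3 Control libraries, with the Control 2 score close to the calling limit. The folds in Control were 5.82, 7.03 and 7.70, or 0.799, 0.785 and 0.740 of the list median, so Acaca was a site of below-median enrichment wherever it was called. Fisher's exact test on libraries with a peak gave a two-sided p of 0.1 for Model against Control and for SYD against Control. This is the smallest p that 3 libraries against 3 can give, so no single site could pass 0.05.

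Acaca was 1 of 42 sites (0.466% of all sites) present in every Control library and in no other. When each list was shortened to its 2508 strongest peaks, the length of the shortest list, Acaca stayed in 1 of 3 Control libraries. With a minimum score of 50 it stayed in 2 of 3. The sites whose scores followed that of Acaca most closely over the 9 libraries were those of Rbm17, a splicing factor (Pearson r = 0.999), Pogk (r = 0.999) and LOC500300 (r = 0.998). These r values use log2(score + 1) with 0 for no peak. They describe 9 libraries whose lists differ in length, and all 3 sites have peaks in Control only. Sites of this pattern are bound to lie close to Acaca in score where no peak counts as 0.

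Fads2 encodes the delta-6 desaturase, the first and rate-limiting step in making long polyunsaturated fatty acids from linoleic and alpha-linolenic acid. Its site, chr1:226152196-226152524 (329 bases, transcript ENSRNOT00000027756), scored 49.08, 27.99 and 117.63 in SYD. It had no peak in any Model library, and in Control it scored 34.06, 56.71 and 99.39. The site was therefore called in 3 of 3 SYD, 0 of 3 Model and 3 of 3 Control libraries, with the same start and end in all 6. Fisher's exact test gave two-sided p values of 0.1 for Model against Control, 0.1 for SYD against Model and 1 for SYD against Control.

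Fads2 was 1 of 4 sites of 9022 (0.0443%) with peaks in all SYD and all Control libraries and in no Model library. The 9022 include 3005 sites called in 1 library, which could not have this pattern. The other sites with the Fads2 pattern lay in Ipo13, an importin, Snx4, a sorting nexin, and Tgfbr2, a receptor for TGF-beta. Sites of this pattern are bound to lie close to Fads2 in score where no peak counts as 0, and r was 0.991 for Snx4, 0.978 for Tgfbr2 and 0.951 for Ipo13 over the 9 libraries. All 3 Model lists were longer than every SYD list. In lists of equal length the Fads2 site had a peak in 3 of 3 SYD, 0 of 3 Model and 2 of 3 Control libraries, and with a minimum score of 50 in 1, 0 and 2. The Model counts were fixed beforehand, since shortening a list or raising the score cannot add a peak. Whether list length bears on the Fads2 pattern was not tested.

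The fold of the Fads2 site was 29.05, 21.11 and 33.57 in SYD, and 7.30, 9.65 and 9.94 in Control. The means were 27.9 ± 6.31 in SYD and 8.96 ± 1.45 in Control (SD, n = 3 each), a 3.11-fold ratio without overlap (exact permutation test, two-sided, p = 0.1, the smallest possible). Divided by the median of its list, the same fold was 1.01 ± 0.0875 in SYD and 1.01 ± 0.0618 in Control, a ratio of 1.00 with overlapping values (exact permutation test, two-sided, p = 1). The higher fold of Fads2 in SYD was hence the size of the difference between whole lists. Mean scores were 64.9 ± 46.9 in SYD and 63.4 ± 33.2 in Control (SD, n = 3 each; exact permutation test, two-sided, p = 1). The spread within each group was much larger than this difference. These exact tests were chosen after the values were seen.

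Scd encodes stearoyl-CoA desaturase, which turns stearic into oleic acid. Its site, chr1:264172658-264172729, was the shortest of the members (72 bases) and had no peak in SYD. It scored 25.38 in Model 1 and 52.34 in Model 3, and 49.55 in Control 1 and 28.45 in Control 3. Model 2 and Control 2, the shortest lists of their groups, had no Scd peak, and whether list length bears on this was not tested. The difference between 0 of 3 SYD libraries and 2 of 3 Model or Control libraries gave p = 0.4 in Fisher's exact test (two-sided). The same presence pattern was found at 199 sites (2.21%). The folds were 8.05 and 8.16 in Model, and 5.22 and 9.12 in Control, all below their list medians.

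Fads1, the delta-5 desaturase that acts after Fads2, had no peak in any library, and a search of gene synonyms gave none either. Fads3, a relative of Fads1 and Fads2 that is not one of the 8 genes and was looked at after its values were seen, had a site at chr1:226091774-226092086. Fads3 scored 29.06 in SYD 1 and 249.11 in SYD 3, 22.91 in Model 3, and 22.98 in Control 2 and 95.54 in Control 3. It was called in 2, 1 and 2 of 3 libraries and did not separate any groups.

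Srebf2 encodes SREBP-2, a membrane-bound transcription factor released by proteolysis when sterols are low, which activates cholesterol synthesis genes. It had 2 sites 20130 bases apart, listed on different transcripts. Site 1, chr7:123381077-123381309 (233 bases, ENSRNOT00000082603), scored 24.65 in SYD 2 and 99.25 in SYD 3, 91.62 in Model 2 and 44.0 in Model 3, and 31.41 in Control 1 and 25.84 in Control 2. Site 2, chr7:123401440-123401865 (426 bases, ENSRNOT00000056041), scored 53.87 in SYD 2 and 92.85 in SYD 3, 60.92 in Model 2, and 105 in Control 2 and 113.73 in Control 3. Neither site separated groups: site 1 was called in 2 of 3 libraries of every group, and site 2 in 2 SYD, 1 Model and 2 Control libraries (Fisher's exact test, two-sided, p = 1 in every comparison). With 7 libraries, Srebf2 and Ppargc1b were the members called most often.

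The Srebf2 sites differed in enrichment. At site 1 the folds were 19.67 and 48.91 in SYD, 10.27 and 12.5 in Model, and 8.85 and 12.36 in Control, or 0.918 to 1.62 of the list median. At site 2 they were 13.16 and 21.07 in SYD, 5.80 in Model, and 6.12 and 9.40 in Control, or 0.597 to 0.904 of the list median. Site 2 thus had high scores with below-median folds, and its median score, 92.85, was the highest of the 7 sites. Srebf1, which encodes SREBP-1, the isoform group that activates fatty acid synthesis genes including Acaca and Scd, had no peak in any library.

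Ppargc1b encodes PGC-1 beta, a coactivator of oxidative metabolism that also coactivates SREBP in mouse liver. Its 2 sites lay 2411 bases apart on transcript ENSRNOT00000023661. Site 1, chr18:56634742-56635543 (802 bases), had no peak in SYD. It scored 35.18, 32.56 and 84.34 in Model, and 154.35, 34.28 and 75.58 in Control. Site 1 was called in 0 of 3 SYD, 3 of 3 Model and 3 of 3 Control libraries, and the Control 1 score was the highest of all 35 member peaks. Fisher's exact test gave two-sided p values of 0.1 for SYD against Model, 0.1 for SYD against Control and 1 for Model against Control.

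Ppargc1b site 1 was 1 of 55 sites (0.610%) held by all Model and all Control libraries and by no SYD library. Its folds were 9.0, 10.91 and 16.05 in Model, and 12.35, 6.58 and 12.11 in Control. The means were 12.0 ± 3.65 in Model and 10.3 ± 3.26 in Control (SD, n = 3 each), a ratio of 1.16 with overlapping values (exact permutation test, two-sided, p = 0.6). Against the list median the ratio was 0.942 (exact permutation test, two-sided, p = 0.9). In lists of equal length the site stayed in 0 SYD, 2 Model and 3 Control libraries. With a minimum score of 50 it stayed in 0, 1 and 2. The 0 in SYD could not change, since the full SYD lists held no peak at this site. The closest sites in score over the 9 libraries were those of Myh4, a skeletal muscle myosin heavy chain (r = 0.997), Ksr1, a scaffold of Ras signalling (r = 0.996), and RGD1305178 (r = 0.994). All 3 sites likewise had peaks in every Model and Control library and none in SYD. Sites of this pattern are bound to lie close in score where no peak counts as 0.

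Ppargc1b site 2, chr18:56637955-56639050 (1096 bases), was the longest member site. It scored 29.43 in SYD 1, 20.59 in Model 1 and 29.12 in Model 3, and 62.19 in Control 1 and 70.72 in Control 3. Unlike site 1, it therefore had a peak in SYD, in 1 of 3 libraries against 2 of 3 in Model and 2 of 3 in Control (Fisher's exact test, two-sided, p = 1 in each comparison). Its bounds differed between libraries, with 4 distinct pairs, whereas the other 6 member sites had identical bounds in every library. Over all sites called in at least 2 libraries, 77.3% had identical bounds.

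Ppargc1a, which encodes PGC-1 alpha, the coactivator that drives mitochondrial biogenesis, had no peak in any library. Pprc1, the remaining relative of the family, is not one of the 8 genes and was looked at after its values were seen. One Pprc1 site, at chr1:265809754-265810119, scored 32.93, 29.03 and 26.95 in SYD, 24.01 in Model 1 and 84.06 in Model 3, and 38.31, 49.31 and 51.24 in Control. This site was called in 3, 2 and 3 libraries. A second Pprc1 site, chr1:265816149-265819005, had a peak only in Model 1 (score 21.61). Among the 3 genes of the family Ppargc1b alone had a site that separated groups, and by gene it did not. Of all sites compared, 4.8% were in every Model and no SYD library and 8.1% in every Control and no SYD library.

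**Figure D2:**
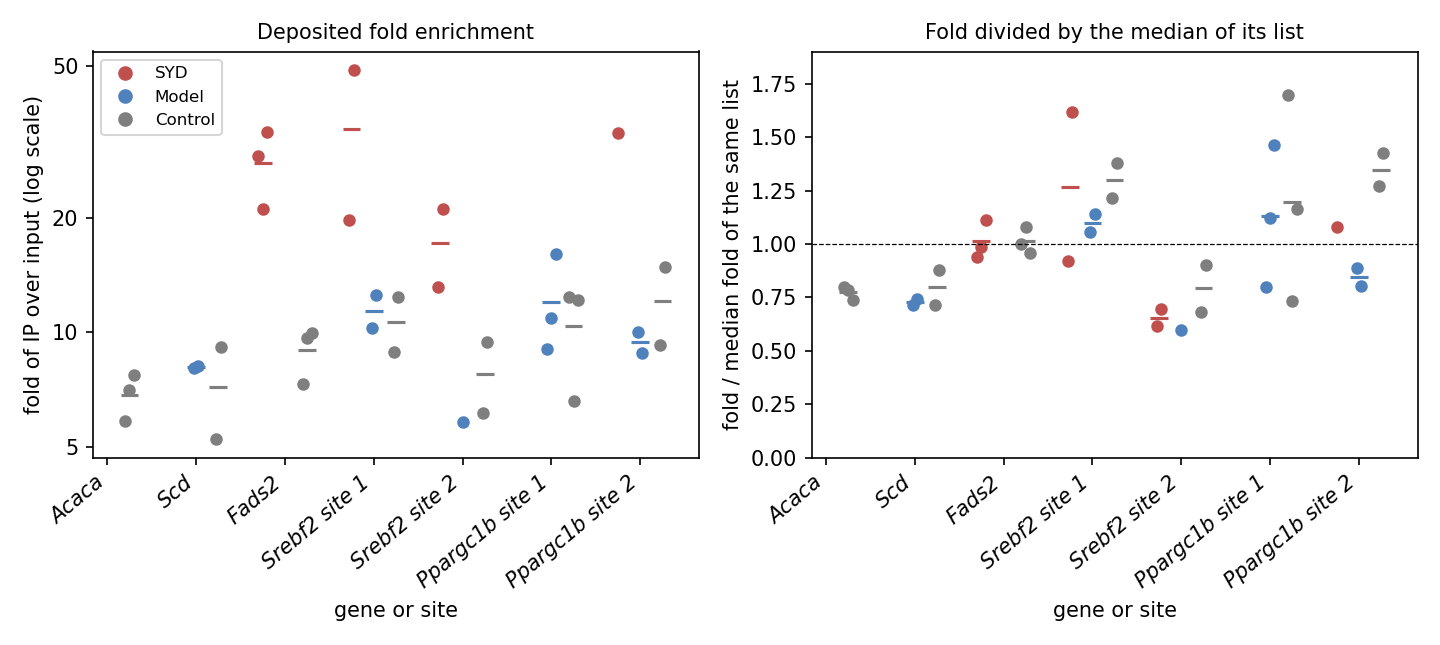
Fold enrichment of IP over input at the 7 member sites as deposited (left, log scale) and divided by the median fold of the same list (right, linear scale from 0), where each point is a library with a peak and short bars are group means, with SYD left of Model and Model left of Control at each site. Where a site has SYD points they stand highest in the left panel, and they lie between 0.614 and 1.62 in the right panel, where the points of all groups together span 0.597 to 1.70; the dashed line marks the list median.

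The separated sites were read against the whole lists. Model was compared with Control over the 4090 sites held by at least 3 of the 6 libraries, which included all 7 member sites. Acaca and Fads2 were 2 of 69 sites in all Control and no Model libraries (1.69% of the sites), and no member site was among the 15 in all Model and no Control libraries (0.367%). A site held by only 3 of 6 libraries, such as that of Acaca, passed this filter only through the group that held it. By gene, 36 of 2822 (1.28%) had peaks in all Control and no Model libraries, again with Acaca and Fads2 among them, and 12 (0.425%) the other way round.

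For SYD against Model, 3106 sites were compared, 5 of them member sites. Fads2 was 1 of 9 sites in all SYD and no Model libraries (0.29%). Ppargc1b site 1 was 1 of 149 in all Model and no SYD libraries (4.8%). By gene, Fads2 was 1 of 7 of 2299 genes (0.304%) with peaks in all SYD and no Model libraries. Ppargc1b was not among the 94 genes (4.09%) in the other direction, because site 2 had a peak in SYD 1.

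SYD was set against Control over 3419 sites, 6 of them member sites. Acaca and Ppargc1b site 1 were 2 of 277 sites in all Control and no SYD libraries (8.1%), and no member site was among the 9 in all SYD and no Control libraries (0.263%). By gene, Acaca was 1 of 174 of 2462 genes (7.07%) in all Control and no SYD libraries, and 5 genes (0.203%), none of them a member, had the opposite pattern. Of the 2197 sites in all Control libraries, 277 (12.6%) were in no SYD and 69 (3.14%) in no Model library. These counts moved with list length, which was shortest in SYD. In lists of equal length, sites in all Control and no SYD libraries numbered 43 against 277 as deposited, and sites in all SYD and no Model libraries 30 against 9. Since the genes were chosen with earlier results of these data known, these shares describe the members and are not a test of them. The comparisons share libraries, so the 3 sets of calls are not independent.

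Member peaks were ordinary members of their lists in strength. Their scores ran from 20.59 to 154.35, and 19 of 35 lay under the median score of their own list. All 3 member peaks of SYD 3 lay above that median, and all 3 of Model 1 below it. A score of at least 50 was reached by 51.4% of member peaks, against 50.9% of all peaks. Their folds were 0.597 to 1.70 of the list median, with a median of 0.941. Peak length had a median of 329 bases in the members and 275 in all lists.

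**Figure D3:**
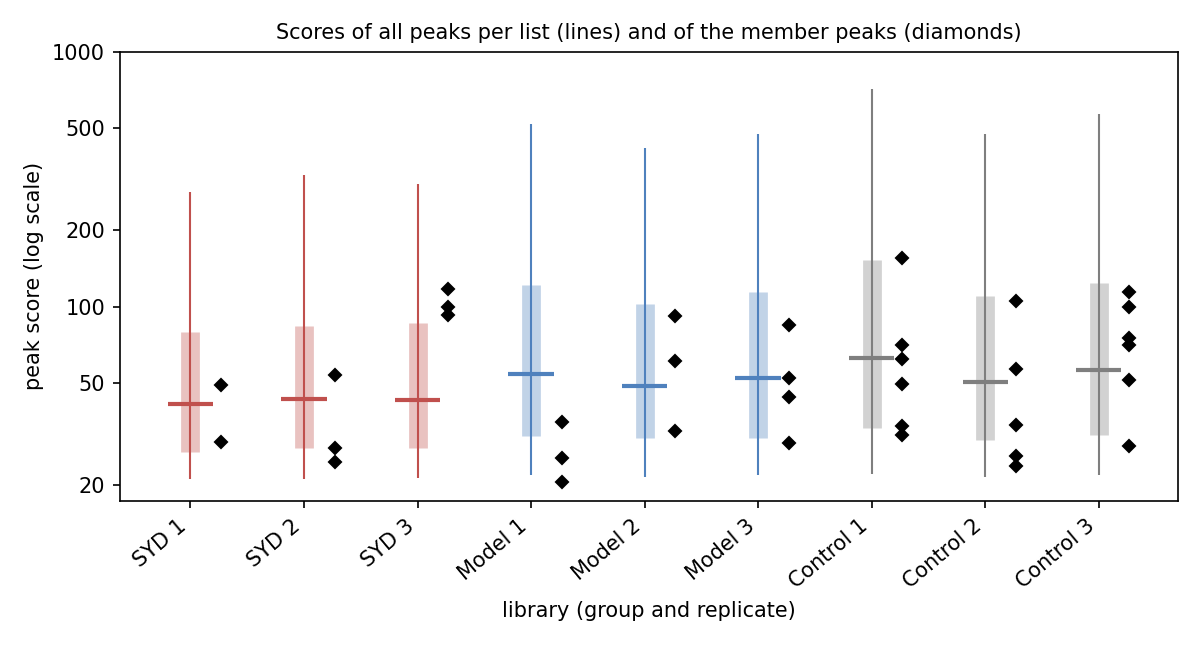
Peak scores (log scale) in the 9 libraries, with SYD left of Model and Model left of Control. In each library the horizontal bar is the median of all peaks, the shaded box spans the middle quartiles, the thin line runs between the 5th and 95th percentiles, and black diamonds beside it are the member peaks, which lie on both sides of the median over the 9 libraries, all above it in SYD 3 and all below it in Model 1.

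Fold was tested with limma at the 917 sites called in all 9 libraries, with Benjamini-Hochberg adjustment and a threshold of 0.05. No member site was called in all 9, so none entered this fit. In it, 826 sites (90.1%) were higher in SYD than in Model and 880 (96.0%) higher in SYD than in Control. No site differed between Model and Control (0 of 917, with 19 at an unadjusted p under 0.05 in limma). With each library centred on its median, limma called 0 sites in every comparison, with 67, 78 and 22 at an unadjusted p under 0.05 for SYD against Model, SYD against Control and Model against Control.

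Srebf2 site 1 was the only member site called in at least 2 libraries of every group and entered a fit over 1829 such sites. Its log2 fold was higher by 1.45 (SE 0.44) in SYD than in Model (limma, adjusted p = 0.00479), in a fit that called 87.9% of sites. It was higher by 1.57 (SE 0.44) in SYD than in Control (limma, adjusted p = 0.00175), where 96.1% of sites were called. The Model minus Control difference was 0.12 (SE 0.44; limma, adjusted p = 0.990). A fit of the same sites with each library centred on its median was added after seeing the data. In it the Srebf2 differences were 0.25 (SE 0.33) for SYD minus Model (adjusted p = 0.904) and 0.13 (SE 0.33) for SYD minus Control (adjusted p = 0.951) in limma. Neither passed the threshold, so no difference of Srebf2 site 1 beyond that of the lists was detected.

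Other genes of the same pathways were taken from 8 lists of 150 genes, which hold the 8 members and 142 others. Of the 142, 53 had a peak in at least 1 library. These other genes with a peak numbered 15, 19 and 20 in SYD, 27, 21 and 31 in Model, and 30, 19 and 28 in Control. The Control range overlapped both the Model range and the SYD range, and no difference between these genes and the members was tested.

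The lists of fatty acid synthesis and of desaturation and elongation averaged more genes with a peak in Control than in Model or SYD. Over all genes, too, Control had the most with a peak, with means of 1896 in SYD, 2562 in Model and 2899 in Control. No pathway list was tested against this background. In fatty acid synthesis 7 of 12 genes had a peak, on average 1.00 ± 1.00 in SYD, 1.67 ± 0.577 in Model and 2.67 ± 1.15 in Control (SD, n = 3 each). In desaturation and elongation 6 of 21 had one, with 2.00 ± 0.00 in SYD, 1.33 ± 1.53 in Model and 3.33 ± 0.577 in Control. Both lists include members, and in both the highest Model library equalled the lowest Control library.

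Glycerolipid synthesis, the assembly of fatty acids into triglycerides and phospholipids, was on average highest in Model, with 2.67 ± 1.15 genes in SYD, 4.67 ± 1.53 in Model and 2.67 ± 1.53 in Control. Sterol synthesis and uptake had 0.667 ± 0.577 in SYD, 3.00 ± 1.73 in Model and 2.00 ± 0.00 in Control. In SREBP processing, which includes Srebf1 and Srebf2 beside the machinery that carries SREBPs to the Golgi and cleaves them, the means were 2.00 ± 1.00, 3.00 ± 1.00 and 3.67 ± 0.577 in SYD, Model and Control.

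In the list of the PGC-1 family and its partners, which includes Ppargc1a and Ppargc1b, 12 of 24 genes had a peak, with 5.00 ± 0.00 in SYD, 7.67 ± 2.52 in Model and 7.67 ± 2.52 in Control. PGC-1 modifiers and AMPK subunits had 12 of 21, with 6.67 ± 0.577, 7.33 ± 1.15 and 8.33 ± 2.08 in SYD, Model and Control. Fatty acid oxidation, the mitochondrial breakdown of fatty acids, was nearly without peaks: 1 of 23 genes had a peak, in 1 Model library and none elsewhere. This gene, Ucp2, was named after its values were seen.

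**Figure D4:**
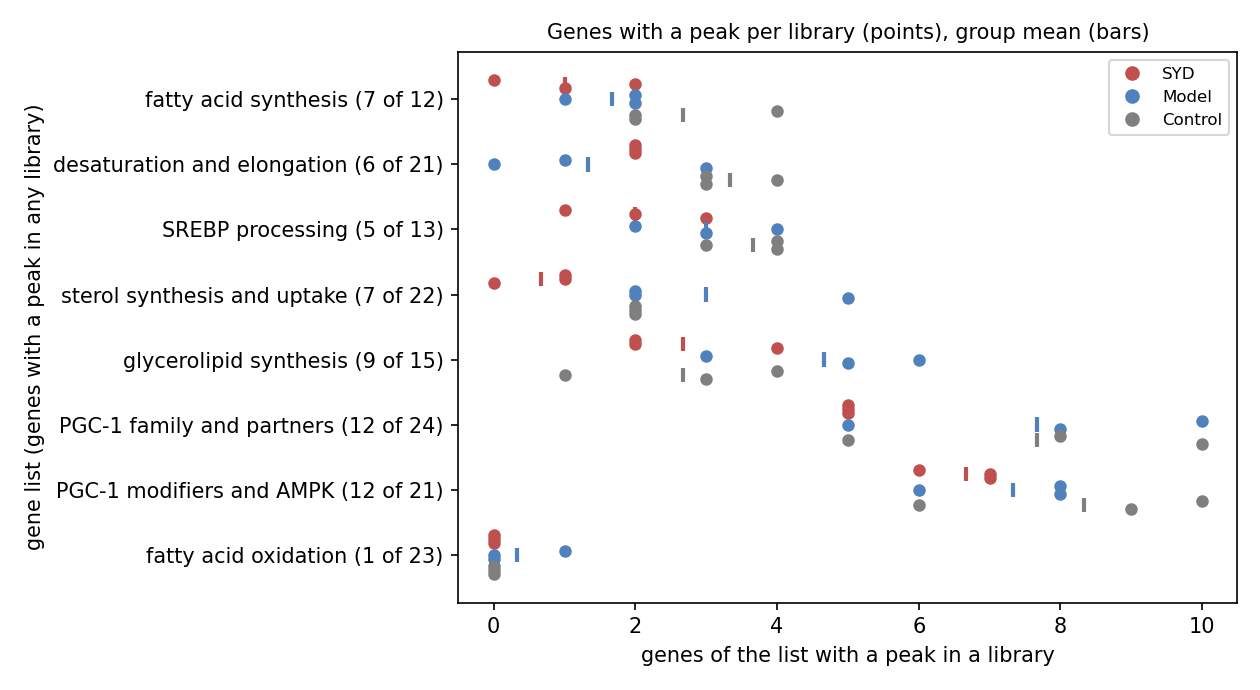
Genes with a peak in each library (points, x axis, number of genes) and the group mean (vertical bars) in 8 pathway lists, with SYD above Model and Model above Control in each row; brackets give how many genes of the list had a peak in any library. The points of the groups overlap in most lists, and fatty acid oxidation lies at 0 in every library but 1.

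Sites of the 142 other genes were compared in the same way. For Model against Control 48 of their sites were compared, and 1 was held by all Control and no Model libraries, against 1.69% of all sites. A site of Stk11, the LKB1 kinase that activates AMPK, at chr7:12447209-12447292 scored 21.18 in SYD 2 and 22.74 in SYD 3, was not called in Model, and scored 54.6, 32.15 and 40.37 in Control. None of the 48 had the opposite pattern, and a second Stk11 site had peaks in 2 Model libraries.

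For SYD against Model 37 of these sites were compared, and 2 were held by all Model and no SYD libraries, against 4.8% of all sites. Of these, a site of Crebbp, an acetyltransferase that binds PGC-1 proteins, at chr10:11626519-11627228 was not called in SYD and scored 160.28, 20.9 and 74 in Model. It was called in 1 Control library, so it did not have the pattern of Ppargc1b site 1. No site was held by all SYD and no Model libraries, and for SYD against Control 0 of 39 separated in either direction, against 8.1% of all sites held by all Control and no SYD libraries and 0.263% the other way round.

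Genes of the 142 with a site in all 9 libraries included Foxo1, a transcription factor that PGC-1 alpha coactivates, Yy1, which binds PGC-1 alpha downstream of mTOR, Fbxw7, a ubiquitin ligase subunit that marks SREBPs for degradation, the acetyltransferases Crebbp and Ep300, and the corepressor Ncor1. None of the 8 members had a site of this kind.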

How the data were processed

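m6A MeRIP-seq was performed by the authors on 18 libraries, an IP and an input for each of 9 replicates. Per the labels, reads were trimmed with cutadapt 1.9.3, aligned to rn6 with HISAT2 2.0.4 and further processed with HTSeq 0.9.1 and edgeR 3.16.5; peaks were called by the authors with MACS in each replicate. The deposited lists give for each peak a score, which equals 10 times −log10 p in all 32961 rows, and a fold (ratio) of IP over input, scaled by the authors within a replicate. The deposited FDR was the same for every peak and was not used. Differential tests by the authors used diffReps on reads; no read counts were used here, so depth is unknown and no such test was repeated.

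Peaks overlapping by 1 base were merged to sites. Presence of each member site was compared with Fisher's exact test, without a filter. The shares over all sites or genes were counted over those in at least 3 of 6 libraries. Log2 fold was compared with limma 3.58.1 (R 4.3.3), checked on simulated data. The simulated data held no shift of whole libraries, so the check does not cover the difference in fold between whole lists. All 9 lists were mapped to groups by their labels. All sites of the 8 genes are named; from the pathway lists, genes with a separating site or one in all 9 libraries; for each separating member site, the 3 genes with the highest Pearson r. The members and lists were chosen with earlier results of these data known. Exon, intron and sequence at the sites were not analysed here. Results for 1 gene of the pathway lists that this rule selects are not reported here.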

Additional observations from a re-analysis of the deposited data

How the results depend on the processing

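With lists of equal length, members with a peak per library differed by -1.0 for Model minus Control (as deposited -2.33), 0.333 for SYD minus Model (reversed from -0.333) and -0.667 for SYD minus Control (-2.67). With a minimum score of 50 the differences for Model minus Control and for SYD minus Control were both -1.67. Leaving out each replicate gave -2.67 to -2.17, -0.500 to 0.00 (0.00 without Model 3) and -3.00 to -2.50. Member sites per library differed by -1.0, 0.667 (reversed from -0.667) and -0.333 at equal length. With a minimum score of 50 they differed by 0.00 for SYD minus Model and -2.00 for SYD minus Control. The ranges without a replicate were -2.67 to -2.17, -0.833 to -0.333 and -3.33 to -2.67. Ppargc1b site 2 reversed at equal length, to 1 more SYD than Model library. Of 252 settings over single member sites, 199 kept their direction, 52 lost or gained one and 1 reversed. The 199 overstate stability. They include differences of 0 that stayed 0, as for Acaca in SYD minus Model. They also include settings without a library of the group not compared, which could not change the difference. The cause of these changes was not tested.

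Sites in all Model and no Control libraries were 15, with 6 at a minimum score of 50, 193 when at least 2 libraries against 0 sufficed and 15 to 121 without a replicate. In all Control and no Model libraries were 69 sites, with 38 at that score, 25 at equal length, 439 at 2 against 0, 36 as genes and 69 to 219 without a replicate. In all SYD and no Model libraries were 9 sites, with 2 at that score, 30 at equal length, 99 at 2 against 0 and 9 to 51 without a replicate. In all Model and no SYD libraries were 149 sites, with 35 at equal length, 746 at 2 against 0, 94 as genes and 149 to 529 without a replicate. In all SYD and no Control libraries were 9 sites, with 2 at that score, 28 at equal length, 73 at 2 against 0, 5 as genes and 9 to 35 without a replicate. In all Control and no SYD libraries were 277 sites, with 43 at equal length, 1070 at 2 against 0, 174 as genes and 277 to 673 without a replicate. Without a replicate fewer libraries had to match, and the highest counts came without Model 2 (121 and 529), Control 2 (219 and 673) and SYD 1 (51 and 35).

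In limma, SYD minus Model and SYD minus Control called 826 and 880 sites on log2 fold, 0 and 0 after centring, 418 and 439 at a score of at least 50, and 1608 and 1758 with sites in at least 2 libraries of every group (0 and 0 when centred). On log2 score, 61 and 329 were called and all were lower in SYD, the reverse of fold. Without a replicate the counts were 595 to 868 and 792 to 902, and Model minus Control stayed at 0. Of 9 same-numbered pairs of replicates, 1 had a correlation of deviations over 0.1. This was Model 1 with Control 1, at 0.259, and the other same-numbered Model and Control pairs had 0.0995 and 0.0339. Unlike-numbered Model and Control pairs had -0.1914 to 0.1125. With the number as a replicate block limma called 851 and 894 sites, and 0 for Model minus Control. Members per library differed within a number by means of -2.33, -0.333 and -2.67. These equal the differences of group means by construction, so they cannot show whether pairing matters. Model minus Control had 38 sites at an unadjusted p under 0.05 in limma with the block, against 19 without.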
